A study of Sus scrofa with 150 samples.

Results

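The livers described here were split by a transcript that has no gene name on the array. Its probe set, given by its identifier in the plots, lay at a high level in 24 of 150 pig livers and near the bottom of the measured scale in all others. The livers were chosen by this value alone: a liver was counted as high when the log2 value of the probe set was above 6.7, and as low when it was below. All other probe sets were then compared between the high and the low livers, and, among the high livers, against the level itself.

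All 150 pigs belonged to a single commercial cross, labelled Pix(DLxDE), and their livers were taken at slaughter. No treatment, control, sex, family or slaughter day is given in the labels, so the 2 groups are defined by the threshold alone. Total RNA of each liver was hybridised to an Affymetrix Porcine Genome Array, 1 array per pig, and each pig carries a fat area on the long back muscle and a drip loss of that muscle. P-values measure the spread between these pigs.

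The results turn on the major histocompatibility complex (MHC), called SLA in pigs. Class I molecules pair a heavy chain such as SLA-1 with beta-2-microglobulin (B2M) and present peptides made inside most cells. Class II molecules pair an alpha with a beta chain, as DR does with SLA-DRA and SLA-DRB1 and DQ with SLA-DQA1 and SLA-DQB1. The DM and DO proteins edit the loading of their peptides, and CD74, the invariant chain, guards the groove on the way. In liver, class II genes are known from Kupffer cells, dendritic cells, B cells and sinusoidal endothelium rather than from resting hepatocytes. SLA genes are among the most variable of the pig genome, and probe sets ending in _x_at hold probes that can match more than 1 sequence. The splitting probe set is of this type, as are the class I follower and the pair of class II probe sets described below.

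The level itself was cleanly split, which is a description, since it chose the livers. In the 24 high livers it ran from 8.26 to 10.14 (median 9.31; mean 9.31, SD 0.56, n = 24) on the log2 scale. In the low livers, the remaining livers of the 150, it ran from 4.09 to 5.13 (mean 4.41, SD 0.28), and 27 of them lay at 4.09, the lowest value of the whole table. The nearest livers on either side of the threshold lay at 5.13 and 5.11 below and at 8.26 and 8.53 above. No liver lay in the gap of 3.13 between them, which is 8.75-fold on the linear scale. The means differed by 4.90, or 29.8-fold, and thresholds of 6.2 and 7.2 chose the same 24 livers.

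**Figure D1:**
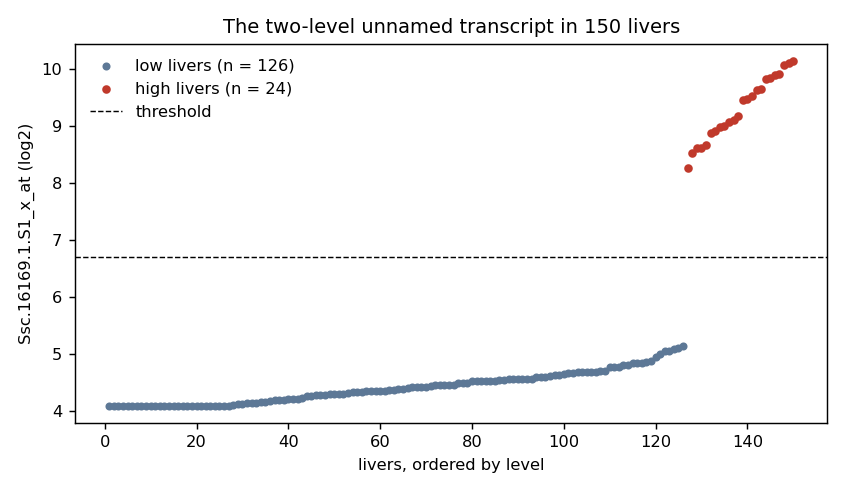
Log2 level of the unnamed transcript's probe set (y axis) in the 150 livers, ordered by that level (x axis), with the threshold of 6.7 dashed. The 24 high livers lie between 8.26 and 10.14 and the low livers between 4.09 and 5.13, with none in the gap.

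Levels with such a gap were rare on the array. A gap of at least 1 on the log2 scale, with at least 10 livers on each side, was found for 18 probe sets, and the unnamed transcript ranked 3 among them by the size of the gap. Its 24 livers were set against the levels of GSTA1 and EIF1AY. GSTA1, a glutathione transferase, had a rare level in 10 livers, of which 0 were high livers and 10 were low livers. EIF1AY, a Y-linked translation factor gene whose levels form 2 clusters with a narrower gap than these 18, was in its upper cluster in 13 of 24 high livers (54.2%) and in 64 low livers (50.8%; Fisher's exact test, two-sided, p = 0.826, adjusted p = 0.929).

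Few transcripts followed the split, and none opposed it past the threshold of the test. Of 23998 other probe sets, 2 were higher in the high livers (0.00833%) and 0 were lower (0%) at an adjusted p under 0.05 (limma with Benjamini-Hochberg adjustment). At an unadjusted p under 0.05, 2099 passed (8.75%), 662 of them higher (2.76%) and 1437 lower (5.99%). The groups overlapped for each of the 23998. The median difference over all of them was -0.0055 on the log2 scale. Neither of the 2 called probe sets carries the name of a single gene, so no named gene followed the split by this test. With the array median as a covariate 9 were higher and 2 lower, and 2 probe sets of NR5A2 were among the 9.

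The probe set most like the splitting transcript has no gene symbol either and is called the unnamed follower here. It ran from 4.09 to 5.65 (median 4.87; mean 4.89, SD 0.44, n = 24) in the high livers. In the low livers it ran from 4.09 to 5.28 (mean 4.36, SD 0.27), 37 of them at the floor of 4.09, against 1 high liver. Values above 5 were seen in 11 of 24 high livers (45.8%) and 5 low livers (3.97%), and 5 high livers lay above the highest low liver. The difference was 0.53 (SE 0.067, 95% interval 0.40 to 0.66; limma adjusted p = 8.19e-09), a small step near the floor, where differences are understated.

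The other called probe set is annotated to MHC class I heavy chains and is called the class I follower here. The annotation gives it both SLA-1 and LOC100513601, which lie on the same chromosome with 2 genes between them, and its signal is assigned to neither. It ran from 5.18 to 10.95 (median 9.46; mean 9.03, SD 1.5, n = 24) in the high livers and from 4.09 to 11.08 (median 5.57; mean 6.51, SD 1.90) in the low livers. The high livers averaged 2.52 more (SE 0.40, 95% interval 1.72 to 3.32; limma adjusted p = 4.84e-05). The groups overlapped over nearly the whole range, but they filled it differently. Its widest gap with at least 10 livers on each side, 0.38 between 7.0 and 7.38, was narrower than the limit of 1 used above. Taken from these data as a cut, it had 21 of 24 high livers (87.5%) and 43 low livers (34.1%) above it. The 3 remaining high livers lay between 5.18 and 5.96. Most high livers thus lay above this cut, while 43 livers lay above it without a high level of the transcript.

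Both followers differed between the groups also when the other was held fixed. With the class I follower as a covariate, the unnamed follower differed by 0.49 (SE 0.074, limma adjusted p = 2.27e-05). With the unnamed follower as a covariate, the class I follower differed by 2.17 (SE 0.48, limma adjusted p = 0.0425). Among the high livers alone, the level correlated with the unnamed follower at r = 0.401 and with the class I follower at r = -0.0725 (24 livers, as a description).

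**Figure D2:**
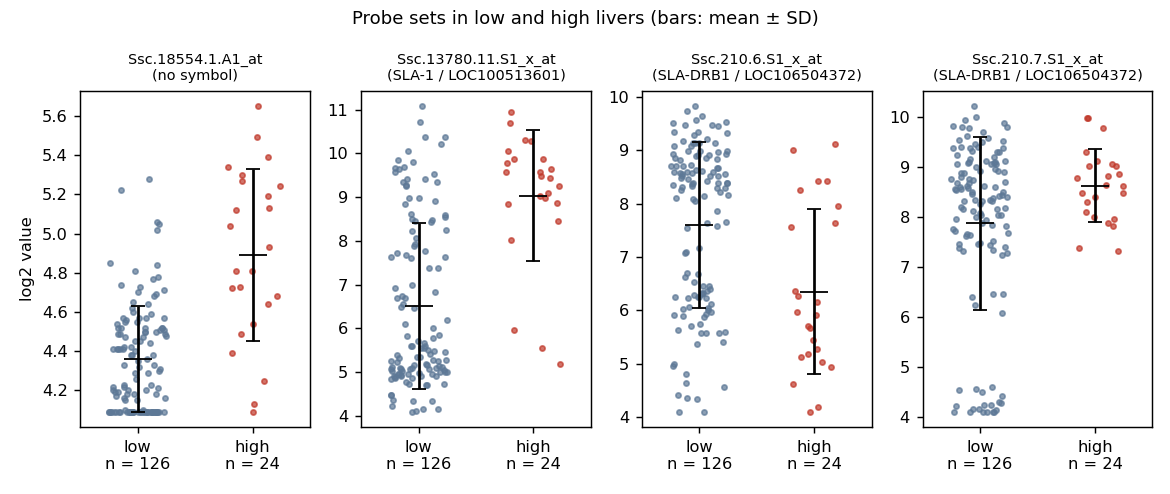
Log2 values (y axis) of 4 probe sets in the low and the 24 high livers, each point a liver, with bars for the mean ± SD. The unnamed follower (left) averages 4.89 in high and 4.36 in low livers and the class I follower 9.03 and 6.51. The 2 class II probe sets on the right did not pass the test.

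A pair of class II probe sets is set beside these by their values, since neither passed the test. Both are annotated to SLA-DRB1 and to LOC106504372, so their signal is assigned to neither. The first, left of the pair in the plot of the followers, ran from 4.09 to 9.12 (median 5.945) in the high and from 4.09 to 9.83 (median 8.31) in the low livers. Its difference was -1.25 (SE 0.34, limma adjusted p = 0.26). Its widest gap was only 0.38, between 6.69 and 7.07, and 8 of 24 high livers (33.3%) against 80 low livers (63.5%) lay above it. The second had a gap of 1.49, between 4.59 and 6.08. All 24 high livers, from 7.31 to 9.99, lay above it, as did 84.9% of the low livers, while 19 low livers lay below, and the difference was 0.76 (SE 0.35, limma adjusted p = 0.528).

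The rest of the antigen presentation genes had like means in both groups. Of 40 probe sets of these genes, 1 was called higher, the class I probe set above, and 0 lower. The 32 with a single symbol had 0 calls by limma, 1 higher and 3 lower at an unadjusted p under 0.05, and differences from -0.19 to 0.24 with a median of -0.017. The largest was that of B2M, at 13.26 (SD 0.26, n = 24) in the high and 13.02 (SD 0.41) in the low livers by 1 of its 9 probe sets (limma adjusted p = 0.387). SLA-DRA averaged 10.12 (SD 0.51, n = 24) and 10.23 (SD 0.46), a difference of -0.11 (SE 0.10, limma adjusted p = 0.781). SLA-DQB1 averaged 9.56 (SD 0.57, n = 24) and 9.50 (SD 0.46).

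The 5 single-symbol genes of smallest p in each direction did not pass and had small differences. Of 10069 probe sets with a single symbol, 631 were lower at an unadjusted p under 0.05 and fewer were higher. Over all 23998 probe sets, too, more were lower (5.99%) than higher (2.76%) at that limit. The tilt to lower values was thus not limited to named genes. On the higher side, LHFPL2, a tetraspan membrane protein gene, differed by 0.26 (SE 0.065, limma adjusted p = 0.248), although its 3 probe sets ran from -0.086 to 0.26. KIF2A, a microtubule-depolymerising kinesin, differed by 0.27, SPATS2 by 0.17 and TSHZ2, a zinc finger factor, by 0.20. NR5A2, the nuclear receptor LRH-1 that acts on bile acid and lipid genes in liver, differed by 0.27 (limma adjusted p = 0.322), and its 5 probe sets ran from 0.027 to 0.31. It was called with the array median as a covariate, at 0.30 (limma adjusted p = 0.0347). On the lower side, GGACT, an enzyme that breaks down gamma-glutamylamines, differed by -0.19 (SE 0.044, limma adjusted p = 0.226), with its second probe set at -0.17. ERLIN2, an endoplasmic reticulum protein, differed by -0.21, OBP2B, a lipocalin, by -0.20, GTF3A, the transcription factor of the 5S ribosomal RNA genes, by -0.19 and NPPA, the atrial natriuretic peptide, by -0.16. By their other probe sets ERLIN2 differed by -0.12 and 0.023, OBP2B by -0.047 and GTF3A by -0.057. Among the EIF1AY upper livers alone, 257 of 23998 probe sets were called higher and 170 lower, counts that depend on single livers. Of the 10 genes above, 6 were among these calls. The 10 were picked by p in all 150 livers, which include the EIF1AY upper livers, so this is no separate support. The 6 were TSHZ2 (0.39, limma adjusted p = 0.00687), LHFPL2 (0.40, 0.0215), NR5A2 (0.45, 0.0338), ERLIN2 (-0.31, 0.0303), GGACT (-0.22, 0.0474) and GTF3A (-0.23, 0.0485). By Pearson's r over the 150 livers, the named genes most like the level were GGACT and OBP2B, both at r = -0.30, against 0.54 for the unnamed follower and 0.45 for the class I follower.

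Over 34 lists of liver pathways and cell types, 377 of 537 listed genes were measured and 0 of them were called by limma, the smallest adjusted p being 0.387. The hepatocyte genes ALB, APOA1 and TTR lay at 13.94, 13.83 and 13.54 in the high and 13.93, 13.84 and 13.55 in the low livers. The list medians ran from -0.19, that of the interferon response genes, to 0.33, that of the red blood cell markers. Of 7 such markers listed 3 were measured, and 3 of 3 had a positive difference (smallest limma adjusted p = 0.435). For 2 of them the unadjusted p was under 0.05, while 2.76% of all probe sets were higher at that limit. The pair of B and plasma cell markers had a median of 0.21. The summed level of the red blood cell markers ran from 8.49 to 10.6 in the high and from 7.73 to 11.2 in the low livers. Of 14 interferon response genes, each by its probe set of smallest p, 0 had a positive difference. Of all 23998 probe sets 11220 did, a count by probe set that is no like measure for the genes. None passed: 0 of the 14 had an unadjusted p under 0.05 (smallest limma adjusted p = 0.576). Their median was -0.19 against -0.0055 over all probe sets. Their summed level ran from 11.2 to 12.1 in the high livers, inside the range of 11.1 to 17.1 of the low livers. In bulk tissue, fewer cells of a type and less RNA per cell cannot be told apart.

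The high livers lay unevenly over the numbers in the sample titles, whose meaning is not given. Blocks of 100 numbers held 15.3% of the variance of the split (permutation test, p = 0.00642, adjusted over 9 relations 0.0289). Titles in the 400s and 500s held 13 high livers of 32 (40.6%), and all other titles 11 (9.32%). This range was chosen after its counts were seen. Within it, the class I follower differed by 3.10 (SE 0.51, limma adjusted p = 0.0154) and the unnamed follower by 0.65 (SE 0.12, limma adjusted p = 0.0400). Outside it they differed by 2.13 (SE 0.60, limma adjusted p = 0.162) and 0.37 (SE 0.089, limma adjusted p = 0.130), and limma called 0 probe sets, with 549 higher and 1580 lower at an unadjusted p under 0.05. With the blocks as a factor in the fit, the same 2 probe sets were called.

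**Figure D3:**
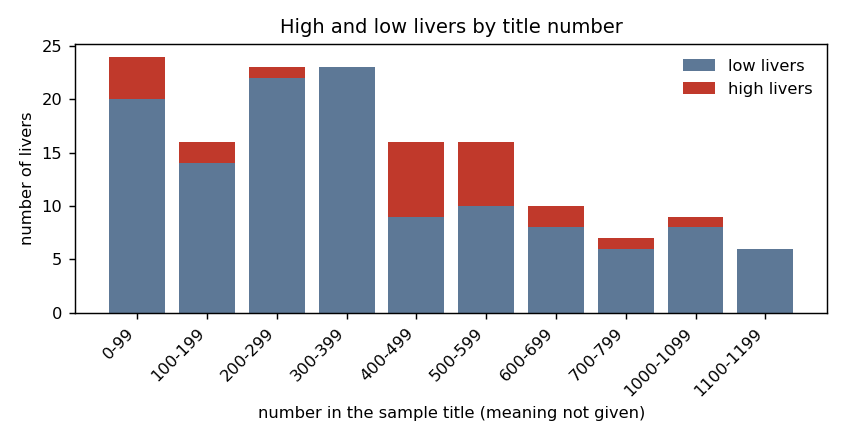
Number of high and low livers (y axis, stacked) in each block of 100 title numbers (x axis). In the blocks from 400 and from 500, 7 of 16 and 6 of 16 livers are high; in the block from 300, 0 of 23 are.

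The groups also differed slightly in how closely their arrays correlated with the rest. The median correlation of an array with the others averaged 0.963 (SD 0.0080, n = 24) in the high and 0.969 (SD 0.0078) in the low livers (permutation test, p = 0.00424, adjusted over 9 relations 0.0289). An array was counted as standing apart when this correlation lay more than 3 median absolute deviations below the median, and 5 of 24 high livers (20.8%) and 8 low livers (6.35%) did. Without these 13 arrays the same 2 probe sets were called, at 2.62 and 0.61. Array medians (p = 0.592) and the GAPDH 3 prime minus 5 prime difference, a sign of RNA integrity (p = 0.338), had no difference past the threshold.

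The 2 traits of the pigs had no detectable difference. Fat area averaged 15.7 cm2 (SD 3.74, n = 24) in pigs with high livers and 15.2 cm2 (SD 3.16) in the others (permutation test, two-sided, p = 0.492, adjusted p = 0.831). Drip loss averaged 5.52% (SD 1.92, n = 24) and 5.54% (SD 2.17; permutation test, p = 0.968).

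Among the 24 high livers the level still varied by 1.88 on the log2 scale, and here named genes followed it closely. The threshold does not use this variation, and the comparison was added after the data had been seen. The splitting probe set is of the _x_at type, and whether its signal shares sequence with these genes was not tested. The slope of each of the 23998 probe sets on the level was fitted by limma within these livers. The 5 smallest p-values of all belonged to the class II chains of DR and DQ and to LOC106504372, a locus whose probe set shares a sequence cluster of the array with that of SLA-DRB1. In the split, limma called none of these 5, whose differences between high and low livers ran from -0.16 to 0.060.

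SLA-DRA, the DR alpha chain, ran from 9.24 to 10.95 (median 10.23) in the high livers. The liver with the lowest level of the unnamed transcript, 8.26, had the lowest SLA-DRA, and that with the highest level, 10.14, had the highest. SLA-DRA rose by 0.86 for each log2 unit of the level (SE 0.071, 95% interval 0.72 to 1.01, limma adjusted p = 3.57e-08). SLA-DRB1, the DR beta chain, ran from 9.02 to 10.82 and rose by 0.84 (SE 0.072, limma adjusted p = 4.65e-08). A further pair of dim SLA-DRB1 probe sets, at 4.09 to 5.60 in the high livers, had slopes of 0.018 and 0.043 that did not pass. LOC106504372 ran from 8.99 to 10.90 and rose by 0.84 (SE 0.074). The DQ chains were alike. SLA-DQA1 ran from 8.33 to 10.32 and rose by 0.88 (SE 0.082), and SLA-DQB1 ran from 8.58 to 10.65 and rose by 0.93 (SE 0.092, limma adjusted p = 3.75e-07). In the low livers, where the transcript's signal was at most 5.13, SLA-DRA ran over a like range, from 9.16 to 11.38.

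Across the 24 livers Pearson's r with the level was 0.949 for SLA-DRA, 0.946 for SLA-DRB1, 0.941 for LOC106504372, 0.929 for SLA-DQA1 and 0.916 for SLA-DQB1. Spearman's rho was 0.949, 0.953, 0.962, 0.897 and 0.895 in the same order. These are a description, since the probe sets were picked for their slopes in the same livers; the test is the slope adjusted over all 23998. Without the 2 livers farthest from the median level, r lay between 0.892 and 0.934.

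**Figure D4:**
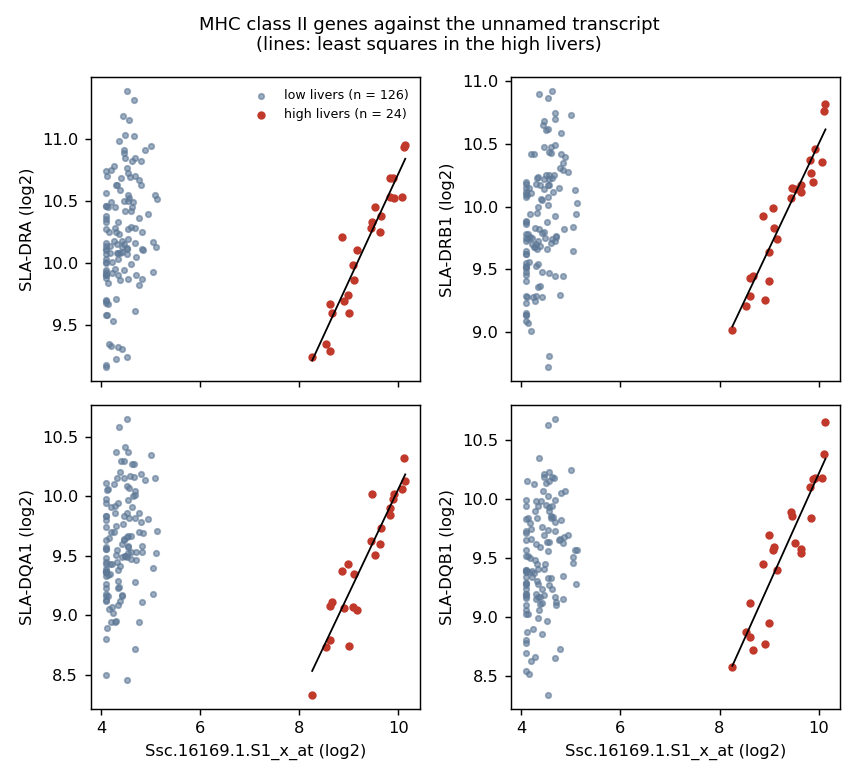
Log2 values of SLA-DRA, SLA-DRB1, SLA-DQA1 and SLA-DQB1 (y axes) against the log2 level of the unnamed transcript (x axis) in each of the 150 livers, with least squares lines for the 24 high livers. In the high livers the points lie close to the line, with r from 0.916 to 0.949, while the low livers span a like range of class II values at levels of 4.09 to 5.13.

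The other proteins of the class II route followed less tightly. SLA-DMB, of the DM peptide editor, rose by 0.63 (SE 0.080, limma adjusted p = 2.85e-05) and ranked 11 of all probe sets. SLA-DMA rose by 0.73 (SE 0.10, limma adjusted p = 8.20e-05) by 1 probe set, but its other probe set had a slope of 0.019 (SE 0.11). The second of the shared DR beta probe sets, above its gap in all high livers, rose by 1.04 (SE 0.16, limma adjusted p = 0.000146), whereas the first had a slope of -0.10 (SE 0.53). CD74 rose by 0.53 (SE 0.13, limma adjusted p = 0.00482) and SLA-DOA by 0.37 (SE 0.094). Of 17 antigen presentation genes measured, each by its probe set of smallest p, 13 rose and 0 fell. A share of all probe sets is no like measure for this count. Counted by probe set, 8 of 13 class II and 2 of 12 class I heavy chain probe sets rose. So did 2 of 5 for TAP1, TAPBP and PSMB8 and 1 of 9 for B2M, and 0 of all these fell. Of all probe sets 7.8% rose and 15.7% fell. On the class I side the genes that rose included TAP1, a chain of the peptide transporter, at 0.61 (SE 0.096), SLA-6 at 0.52 and the immunoproteasome subunit PSMB8 at 0.55. Other probe sets of the same genes did not pass: TAP1 had slopes of 0.042 and 0.064 by the others and SLA-6 one of -0.0016. B2M rose by 1 of its 9 probe sets, at 0.18 (limma adjusted p = 0.00918). The classical class I genes SLA-2 and SLA-3 had slopes of 0.22 (limma adjusted p = 0.155) and 0.27 (limma adjusted p = 0.217).

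The class II genes were part of a much wider movement across these livers. In all, 1872 probe sets rose with the level (7.8%) and 3768 fell (15.7%). Of 42 cytosolic ribosomal protein genes, 26 rose and 0 fell, RPS27 by 0.34 (SE 0.053); after quantile normalization 20 rose and 1 fell. Outside these lists MDK, the growth factor midkine, rose by 0.56, LGALS1, galectin-1, by 0.68 and ITM2C by 0.63. Among those that fell were RBBP6, a ubiquitin ligase, at -1.21 (SE 0.15, limma adjusted p = 1.93e-05), the kinase ROCK1 at -1.02, the adhesion molecule ALCAM at -1.23 and the chromatin protein DEK at -1.11. After quantile normalization, an alternative scaling, 13.6% rose and 13.6% fell, so the balance of rising and falling depends on the scaling. Of 15 fatty acid oxidation genes, 6 fell and 0 rose, with the medium-chain dehydrogenase ACADM at -0.83 (SE 0.17), and 4 fell after quantile normalization. Of 11 coagulation genes, 5 fell, such as F5 at -0.69, and 2 rose, PROC at 0.21 and SERPIND1 at 0.39.

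Array measures moved with the level in the same livers. The level correlated with principal component 1 of all 150 arrays, which holds 24.5% of the variance, at r = 0.798 (n = 24, permutation p = 3e-05). It correlated with the array median at r = -0.607 (permutation p = 0.00189) and with the GAPDH 3 prime minus 5 prime difference at r = -0.547 (permutation p = 0.00625). With components 1 and 2 as covariates, 5 probe sets rose (0.0208%) and 0 fell (0%), by limma, with 1300 at an unadjusted p under 0.05. The 5 were SLA-DRA, SLA-DRB1, LOC106504372, SLA-DQA1 and SLA-DQB1, with slopes from 0.76 to 1.01 and adjusted p-values from 0.000441 to 0.00509. The components were computed with these probe sets included. Of the 26 ribosomal protein genes, and of the fatty acid oxidation and coagulation genes, 0 were then called, and RBBP6 had a slope of -0.57 (limma adjusted p = 0.847). With the array median as a covariate, 37 rose and 46 fell, and the 5 smallest p-values again belonged to the same 5 probe sets.

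**Figure D5:**
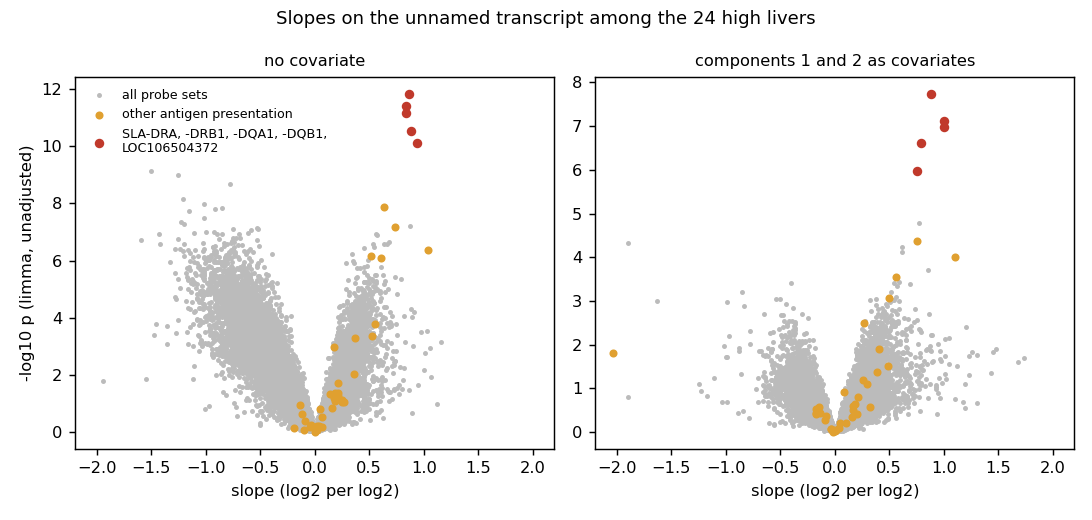
Slope on the level among the 24 high livers (x axis, log2 per log2) against -log10 of limma's unadjusted p (y axis) for 23998 probe sets, without covariates (left) and with principal components 1 and 2 (right). The 5 probe sets of SLA-DRA, SLA-DRB1, SLA-DQA1, SLA-DQB1 and LOC106504372, in red, have the smallest p-values in both panels. With the components no other probe set passed the adjusted threshold.

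Markers of macrophages and Kupffer cells, and of endothelium, moved with the level in both directions. Of 9 macrophage and Kupffer cell genes measured of 13 listed, each by its probe set of smallest p, 5 rose and 2 fell. Of all probe sets 7.8% rose and 15.7% fell, or 13.6% each after quantile normalization. These shares are by probe set and are no like measure for a count of genes. The complement genes C1QA and C1QC both rose by 0.44, CD14 by 0.45 and VSIG4 by 0.75, whereas the scavenger receptor CD163 fell by 0.76 and the mannose receptor MRC1 by 0.69. AIF1 (0.25, limma adjusted p = 0.0582) and MARCO (0.050, limma adjusted p = 0.764) did not pass. The summed level of the list ran from 12.5 to 13.5 in the high and 12.3 to 14.0 in the low livers. Of 8 endothelial genes 3 rose and 1 fell, and of 9 T and NK cell genes 3 rose and 0 fell. Of 2 B and plasma cell genes 0 rose and 0 fell (CD79B 0.10 and JCHAIN 0.18). Counts from lists this short, such as the single endothelial gene that fell, can lie near the share over all probe sets. With the components as covariates, and likewise with the array median as a covariate, 0 genes of these 4 lists were called by limma. The part of cell numbers in the class II slopes was not tested.

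The slopes of the DR and DQ genes and of LOC106504372 were present in subsets of the high livers, at ranks that differed between subsets. Among the 13 with titles in the 400s and 500s, all 5 were called with slopes of 0.71 to 0.87, at ranks 7 to 65. In this subset 3.21% of all probe sets rose and 12.5% fell. Among the 11 with other titles, the slopes were 0.90 to 1.02, at ranks 2 to 8. There 3 of the 5 were called, and SLA-DQA1 and SLA-DQB1 were not (largest limma adjusted p = 0.0564). Of all probe sets 0.0208% rose and 0.00417% fell in these livers. All 5 were called in the 13 EIF1AY upper livers, at ranks 1 to 27, and in the 11 EIF1AY lower livers, at ranks 3 to 11. In the upper livers 2.27% of all probe sets rose and 5.77% fell, and in the lower livers 0.338% and 2.36%. Among the 19 livers whose arrays did not stand apart, the 5 held the 5 smallest p-values, with slopes of 0.82 to 0.97. Of all probe sets 3.46% rose and 11% fell among these 19. Leaving out each high liver in turn, all 5 were called each time with slopes from 0.80 to 0.95. In these fits 5.59% to 8.61% of all probe sets rose and 13.2% to 16.6% fell.

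In the low livers the level lies at or just above the floor and varies by 1.04. Even so, SLA-DRA rose with it by 0.53 (SE 0.14, limma adjusted p = 0.00802) and SLA-DRB1 by 0.61 (SE 0.14, limma adjusted p = 0.00462), at r = 0.32 and 0.371. Here 1138 probe sets rose (4.74%) and 2698 fell (11.2%). The difference between the slopes in high and low livers was not tested.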

How the data were processed

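Livers of 150 pigs were measured on 1 Affymetrix Porcine Genome Array each. In the deposited table each probe set has a log2 value, a scale inferred from the range. Per the submitters' processing notes GCOS 1.1.1 was used; how probes were summarised and arrays scaled is not given in the sources used. The lowest log2 value is 4.09, which 2.75% of values share. Array medians run from 5.79 to 6.09. Precision is limited by how many arrays there are.

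Of 24123 probe sets, 124 controls and the splitting probe set were left out and 23998 tested. Of the 23999 that are not controls, 10069 have 1 symbol, 198 several and 13732 none. Symbols come from the array's annotation, 9961 of them matched by Entrez ID to the gene table of Sscrofa11.1; neighbouring genes were read from that table. The deposited files name no build of their own, so no position is printed.

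High and low livers (log2 above or below 6.7) were compared with limma 3.58.1 (lmFit, eBayes with trend) in R 4.3.3, two-sided, with no covariate. Calls were made at p under 0.05 after Benjamini-Hochberg adjustment. Slopes on the level within the high livers used the same fit. Single relations had permutation tests of 100000 resamples or Fisher's exact test. The fits were tested on simulated data. Components are principal components of all 150 arrays.

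The split, the gene lists and the tests were chosen with earlier results of these data known. The rule for naming took, in the split, called probe sets without a single symbol, the 5 single-symbol genes of smallest p per direction where fewer than 5 were called, the 10 probe sets most like the level by r, of which only those with a symbol or a call are described, and GSTA1 and EIF1AY. Genes named for their slopes were chosen after their values were seen, from the 15 of smallest p per direction and from the lists. A gene counts once in a list, by its probe set of smallest p. The alternatives were quantile normalization, other eBayes settings, normal scores, filters on dim or flat probe sets, covariates, other thresholds and subsets of livers. The title range, the subset of EIF1AY upper livers without arrays standing apart, the followers as covariates of each other and every fit of slopes were added after the data had been seen.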

Additional observations from a re-analysis of the deposited data

Results flagged for a closer look

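The split was compared between the 2 clusters of EIF1AY level by an interaction term, and 1 of 23998 probe sets passed. MRPL50, a mitochondrial ribosomal protein gene, had an interaction of -0.50 (SE 0.098, limma adjusted p = 0.0241). In the upper EIF1AY cluster it averaged 6.58 in 13 high livers and 6.91 in 64 low livers. In the lower cluster it averaged 6.95 in 11 high livers and 6.78 in 62 low livers, so the difference was -0.33 in the first cluster and 0.17 in the second.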

How the results depend on the processing

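The split's 2 higher and 0 lower probe sets became 1 and 0 with a filter on a mean above 6, which leaves the unnamed follower untested, 3 and 1 with 5 principal components, and 9 and 2 with the array median as a covariate. They became 257 and 170 in the EIF1AY upper livers, where leaving out each of 13 high livers moved them between 7 and 737 and between 2 and 412, and 14 and 8 there without arrays standing apart. They became 1 and 0 in the EIF1AY lower livers, where the class I follower differed by 2.33 (limma adjusted p = 0.59), and 0 higher without titles in the 400s and 500s. Leaving out each high liver gave 2 higher and 0 to 1 lower. The cause was not tested. TSHZ2 reversed to -0.028 in the EIF1AY lower livers but was called in the upper livers (0.39) and there without arrays standing apart (0.38, limma adjusted p = 0.0336), as was LHFPL2 (0.40 and 0.46, limma adjusted p = 0.0203); an unnamed probe set among the 10 most like the level, at -0.21 in all livers, reversed to 0.029 in the upper livers without arrays standing apart.

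The 7.8% of probe sets rising and 15.7% falling with the level became 13.6% rising after quantile normalization, 0.154% and 0.192% with the array median, 4.02% and 7.92% with the median correlation, 0.0333% and 0% with component 1, and 0.0208% and 0% with components 1 and 2. Rising became 3.46% without arrays standing apart and 3.21% with titles in the 400s and 500s. The other titles gave 0.0208% and 0.00417%, EIF1AY upper livers 2.27% and 5.77%, and EIF1AY lower livers 0.338% and 2.36%. Leaving out each high liver gave 5.59% to 8.61% rising and 13.2% to 16.6% falling. Fat area differed by 0.0645 to 0.746 cm2 and drip loss by -0.277 to 0.121 percentage points over their alternatives, none past the threshold. No paired analysis was possible because the labels give a single group and the replicate numbers follow the order of deposit. Differences near the floor of 4.09 are understated, and 24 livers limit the precision of the slopes.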
